A study of Homo sapiens with 6 samples.

Results

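CNR1 encodes the CB1 cannabinoid receptor, and it is described here in human embryonic stem cells together with the receptor gene CNR2 and 5 genes for enzymes that make or break down endocannabinoids (DAGLA, DAGLB, NAPEPLD, FAAH and MGLL). These 7 genes are 7 of the 53719 rows of a table of read counts per gene symbol, and all 7 had enough counts to be among the 19721 genes tested. CNR1 was chosen because earlier results of these data had it past the threshold of the comparison between groups, so its values in that comparison are a description and support nothing. The other 6 were taken for their roles beside CNR1.

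The cells were H9, an established human embryonic stem cell line, cultured in RSeT, a commercial medium for a naive-type pluripotent state. Both groups were transfected with a gapmer, an antisense oligonucleotide whose DNA core lets RNase H cut the RNA it pairs with. In the knockdown group (3 libraries, a to c, titled Sense3) the gapmer was directed against ALR, the alpha satellite repeat RNA of human centromeres, and in the control group (3 libraries, a to c) it was a control gapmer. RNA was collected 48 h after transfection in both groups. The labels do not say whether a, b and c were separate cultures, so p-values measure the spread between these libraries, which may be technical. All libraries come from 1 cell line, and the oligonucleotide sequences are not given in the sources used here. The table is by gene symbol, with 0 rows under an alpha satellite name, so the depletion of the target RNA was not checked here.

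Total counts ran from 25087629 to 36576752 per library. Knockdown library a stood apart, with counts in 29678 rows against 25898 to 26788 in the other 5 libraries. The pluripotency markers DNMT3B (mean of the 6 libraries 1981 CPM, the count divided by the TMM-scaled library size), LIN28A (1649) and POU5F1 (116) were abundant, while SOX2 was listed at 0 in every library although SOX2-OT, the gene around it, had 9866 counts in all. A gene listed at 0 in this table is therefore not read as unexpressed. Of the naive-state markers, TFCP2L1 (27.8 CPM), DPPA3 (19.6 CPM), KLF4 (17.6 CPM) and NLRP7 (12.9 CPM) were well counted, KLF17 had 22 counts over all libraries and KHDC1L was listed at 0. Of the primed-state markers, CDH2 (293 CPM) and VIM (226 CPM) were well counted and THY1 was listed at 0. Of the 15 neural markers, NES (344.5 CPM) and TUBB3 (218 CPM) were abundant and DCX (41.0 CPM) was well counted. NEUROD1 was listed at 0, and NEUROG1, NEUROG2 and SOX1 had 6 to 41 counts over all libraries. The summed level of the neural list was 636 to 713 CPM in knockdown and 589 to 663 CPM in control libraries, most of it from NES and TUBB3. RBFOX3, named after its values were seen, had 28.4 ± 3.58 CPM in knockdown and 19.9 ± 2.44 CPM in control libraries (SD, n = 3 each, edgeR adjusted p = 0.0582). Of the 9 neural genes tested, 6 had a log2 fold change above 0 and 3 below, where 54.4% of all genes were above 0. The part of the neural list in the results below was not tested.

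CB1 is a G protein-coupled receptor for lipids that cells make from their own membranes. It acts mainly through inhibitory G proteins of the Gi/o class, which lower cyclic AMP, and it is best known from neurons, where it dampens transmitter release. Its main ligands are 2-arachidonoylglycerol, made by the diacylglycerol lipases DAGLA and DAGLB and broken down by MGLL, and anandamide, which NAPEPLD can release from membrane lipids and FAAH hydrolyses. CB2, the product of CNR2, is the related receptor found mostly on immune cells.

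**Figure D1:**
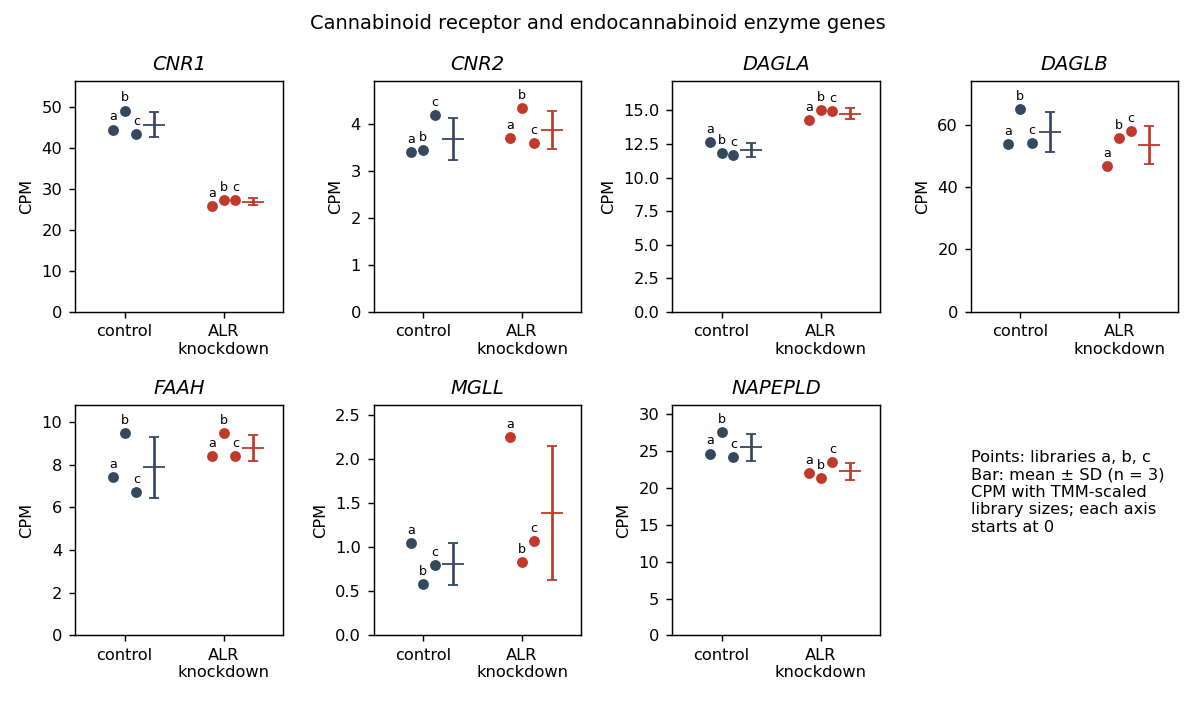
CPM (count over TMM-scaled library size) of the 7 genes in each control and knockdown library, one panel per gene, with points for libraries a, b and c and the mean ± SD (n = 3) beside them. The CNR1 points lie at 25.8 to 27.3 CPM in knockdown and 43.4 to 49.2 CPM in control libraries, while the groups of CNR2, DAGLB, FAAH and MGLL overlap.

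CNR1 (ENSG00000118432.12) lies on the minus strand of chromosome 6, from 88139864 to 88166359 in GENCODE release 29 on GRCh38, the assembly that hg38 in the submitters' processing notes refers to. It is a protein-coding gene, and no other annotated gene overlaps it. RefSeq lists 6 start sites for it, spread over 22.0 kb, which counts per gene cannot tell apart.

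Values of single libraries are given in the order a, b, c. The counts of CNR1 were 733, 912 and 690 after knockdown and 1266, 1527 and 1578 in the controls. Scaled to library size, these were 25.8, 27.3 and 27.3 CPM after knockdown and 44.5, 49.2 and 43.4 CPM in the controls. The highest knockdown library was thus well under the lowest control library, and the knockdown libraries lay close together, knockdown library a included. The means were 26.8 ± 0.853 and 45.7 ± 3.05 CPM (SD, n = 3 each). The log2 fold change was -0.77 ± 0.07 (SE), which puts the knockdown level at 58.7% of control. CNR1 was 1 of the 128 genes past the threshold that were lower in knockdown libraries (0.649% of the genes tested), and by size of fall it was number 20 of these. In RNA of whole cultures, fewer cells with the transcript and less transcript per cell cannot be told apart.

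Of the 7 genes, CNR1 was the only one past an adjusted p of 0.05 in edgeR's quasi-likelihood test with Benjamini-Hochberg adjustment over all genes. Over all genes tested the share past this threshold was 0.786%, and nothing is read from the count of 1, since CNR1 was chosen on this contrast. In 3 of the 7 genes the CPM of the groups did not overlap, CNR1 and NAPEPLD being lower and DAGLA higher in knockdown libraries. The share over all genes was 18.9% (9.37% lower and 9.55% higher). An unadjusted p under 0.05 was reached by the same 3 genes, where 14.3% of all genes did so. The median log2 fold change of the 7 was 0.07, and that of all genes tested was 0.02. CNR1, chosen on this contrast, is among the 3 and the 7, so nothing is read from these counts or this median.

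The second receptor gene, CNR2 (ENSG00000188822.7; chromosome 1, 23870526 to 23913362, minus strand), was counted at a low level in both groups. It had 3.70, 4.345 and 3.60 CPM after knockdown and 3.41, 3.45 and 4.21 CPM in the controls, from 91 to 153 counts per library. The libraries of the groups were interleaved. The log2 fold change was 0.07 ± 0.17 (SE; edgeR adjusted p = 0.887), with a 95% interval from 81.3% to 136% of the control level. Without knockdown library b it changed sign (-0.025). GENCODE places a processed pseudogene and an antisense gene within the span of CNR2, neither of which overlaps its exons.

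DAGLA (ENSG00000134780.9; chromosome 11, 61680433 to 61747001, plus strand), whose enzyme supplies most 2-arachidonoylglycerol in the brain, had 14.3, 15.04 and 14.96 CPM after knockdown and 12.6, 11.8 and 11.7 CPM in the controls. All 3 knockdown libraries were above all 3 controls, but the difference did not pass the threshold over all genes. The means were 14.8 ± 0.400 and 12.04 ± 0.516 CPM (SD, n = 3 each), and the log2 fold change was 0.30 ± 0.09 (SE; edgeR adjusted p = 0.168). Its 95% interval ran from 107% to 141% of the control level. The exons of DAGLA overlap those of a noncoding gene on the opposite strand, DKFZP434K028, and without a stated strand setting their reads cannot be told apart.

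DAGLB (ENSG00000164535.14; chromosome 7, 6409126 to 6484190, minus strand), the form of the lipase best known from macrophages and microglia, had 46.6, 55.7 and 57.9 CPM after knockdown. The controls had 53.7, 65.1 and 53.9 CPM. Knockdown library a was the lowest and control library b the highest of the 6, while knockdown libraries b and c lay above control libraries a and c, so the groups overlapped. The log2 fold change was -0.11 ± 0.10 (SE; edgeR adjusted p = 0.661; 95% interval 80.1% to 107% of the control level). It shrank to -0.021 when knockdown library a was left out and to -0.016 when control library b was. KDELR2, whose exons overlap those of DAGLB on the same strand in GENCODE and which encodes a retrieval receptor of the endoplasmic reticulum that all cells use, was listed at 0 in every library. How reads in overlapping genes were assigned is not given in the sources used here, so the level of DAGLB is uncertain.

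NAPEPLD (ENSG00000161048.11; chromosome 7, 103099776 to 103149560, minus strand), the phospholipase that releases anandamide and related N-acylethanolamines, had 22.0, 21.3 and 23.5 CPM after knockdown. The controls had 24.7, 27.6 and 24.25 CPM. The groups did not overlap, although knockdown library c and control library c were close. The means were 22.3 ± 1.15 and 25.5 ± 1.83 CPM (SD, n = 3 each), and the log2 fold change was -0.20 ± 0.08 (SE; edgeR adjusted p = 0.309; 95% interval 77.1% to 98.8% of the control level). The difference did not pass the threshold over all genes.

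Among the enzymes of breakdown, FAAH (ENSG00000117480.15; chromosome 1, 46394265 to 46413848, plus strand), the hydrolase of anandamide, had 8.425, 9.50 and 8.43 CPM after knockdown. In the controls it had 7.42, 9.47 and 6.72 CPM. Control library b lay with the knockdown libraries, so the groups overlapped. The log2 fold change was 0.16 ± 0.14 (SE; edgeR adjusted p = 0.647; 95% interval 90.6% to 138% of the control level). It was 0.31 without control library b, and leaving out control library c gave 0.058.

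MGLL (ENSG00000074416.14; chromosome 3, 127689062 to 128052190, minus strand), the lipase that ends most 2-arachidonoylglycerol signalling in the brain, was the least counted of the 7. It had 64, 28 and 27 counts after knockdown and 30, 18 and 29 counts in the controls. Knockdown library a alone stood out, at 2.26 CPM, and the other 5 libraries lay between 0.580 and 1.07 CPM. Its log2 fold change was 0.77 ± 0.42 (SE; edgeR adjusted p = 0.428), as large as that of CNR1 and opposite in sign but far less precise, with a 95% interval from 91.3% to 319.5% of the control level. Without knockdown library a it was 0.23 ± 0.38 (SE; edgeR adjusted p = 0.842). That library also had counts in the most rows of the table, and the part of this in the MGLL value was not tested. KBTBD12, which lies across MGLL on the opposite strand, likewise had its highest count in knockdown library a, 52 against 15 to 36 in the others. SEC61A1, which overlaps MGLL on the same strand as KBTBD12, had 1900 counts in that library and 1584 to 2190 in the others. These counts are not scaled to library size.

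Control library b was the highest of the 3 control libraries for 4 of the 7 genes (CNR1, DAGLB, FAAH and NAPEPLD). The share over all genes is not given here, so nothing is read from this count. When each of the 6 libraries was left out in turn, the log2 fold change of CNR1 was smallest in size without control library b (-0.72). Its largest size (-0.80) came without knockdown library c or control library c.

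**Figure D2:**
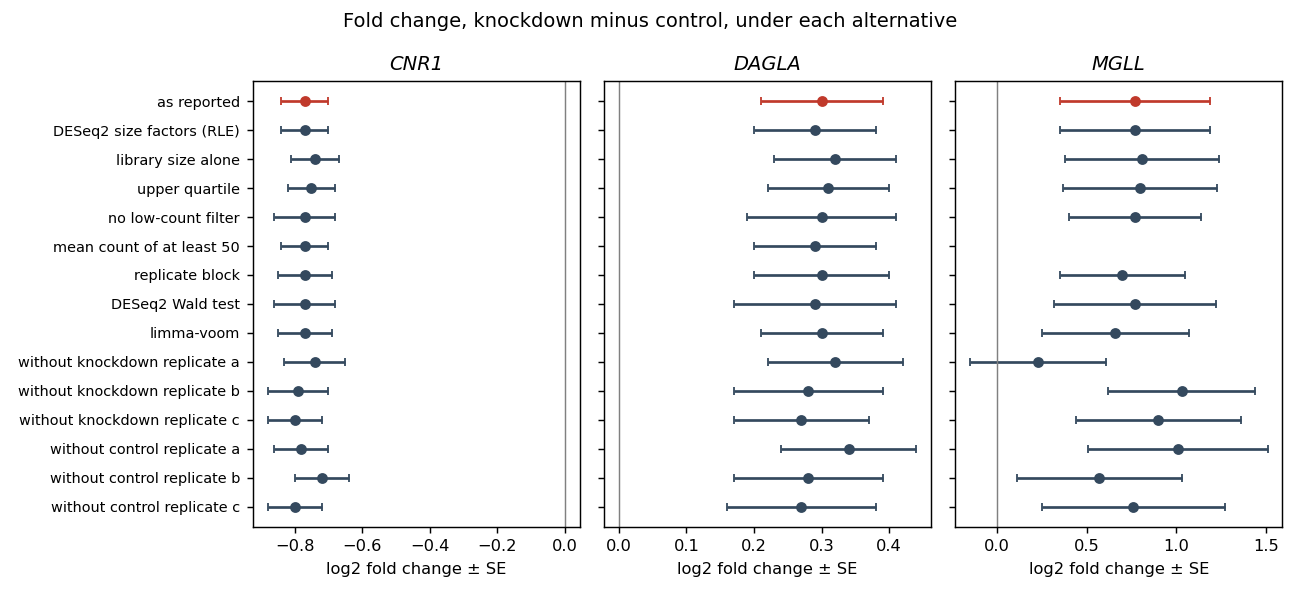
Log2 fold change (knockdown minus control) ± SE of CNR1, DAGLA and MGLL as reported (red) and under each alternative scaling, filter, test or set of libraries (dark), with a separate axis per gene. CNR1 stays between -0.80 and -0.72 and DAGLA between 0.27 and 0.34, while MGLL falls to 0.23 without knockdown library a and has no value at a mean count of at least 50.

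Levels of different genes were compared per length, as CPM per kb of annotated exon in GENCODE. DAGLB was the highest of the 7, at 9.33, 11.3 and 9.37 CPM per kb in the controls and 8.10, 9.68 and 10.06 after knockdown. CNR1 followed at 7.19 ± 0.480 in control and 4.22 ± 0.134 in knockdown libraries (SD, n = 3 each), so it kept its place below DAGLB and above NAPEPLD in both groups. NAPEPLD (3.37 ± 0.242 in control and 2.945 ± 0.152 in knockdown libraries) and FAAH (2.835 ± 0.515 and 3.16 ± 0.223) overlapped within each group, and the order of their means was opposite in the groups. DAGLA came next, at 2.09 ± 0.0896 CPM per kb in control and 2.57 ± 0.0694 in knockdown libraries. CNR2 was far lower, at 0.702 ± 0.0860 and 0.739 ± 0.0769, and MGLL was the lowest, at 0.0685 ± 0.0201 and 0.117 ± 0.0642. Neighbours in this order other than NAPEPLD and FAAH did not overlap in either group. The exon length of MGLL, 11.85 kb in all, adds up many annotated transcripts and lowers its value.

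Among 15226 tested genes with an exon length, 56.1% had a lower level per kb than CNR1, 69.5% a lower level than DAGLB, 20.1% a lower level than CNR2 and 1.39% a lower level than MGLL. Within a library, CNR1 was 10.8, 11.8 and 8.52 times CNR2 per kb in the controls. After knockdown it was 5.77, 5.198 and 6.27 times CNR2. CB1 was thus the more abundant receptor transcript in every library.

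The receptors grouped with CB1 and CB2 in family trees of G protein-coupled receptors (those for lysophosphatidic acid, sphingosine 1-phosphate, melanocortins and adenosine, and GPR3, GPR6 and GPR12) place CNR1 among its relatives. Of 20 such genes 10 could be tested, 9 with a log2 fold change above 0 and 1 below, and 0 passed the adjusted threshold in edgeR's or DESeq2's test. Of these, 3 had an unadjusted p under 0.05, and the median log2 fold change was 0.23. Over all genes tested, 54.4% were above 0, 0.786% passed the adjusted threshold in edgeR's test, 14.3% had an unadjusted p under 0.05, and the median was 0.02. In DESeq2's test 530 of 19721 genes passed the adjusted threshold. The highest per length were the lysophosphatidic acid receptors LPAR2 (7.89 CPM per kb over the 6 libraries), LPAR3 (6.73) and LPAR1 (6.27), against 5.71 for CNR1. Their log2 fold changes were 0.00 ± 0.09, 0.18 ± 0.07 and -0.36 ± 0.12 (SE; edgeR adjusted p = 1, 0.297 and 0.200). The place of CNR1 among these receptors differed between the groups, which restates its fall in the contrast it was chosen on. Its control libraries (6.83 to 7.74 CPM per kb) overlapped those of LPAR2 (7.26 to 8.45) and LPAR1 (6.09 to 7.63). They lay above those of LPAR3 (6.265 to 6.34). After knockdown CNR1 (4.065 to 4.30) lay below every library of LPAR1 (lowest 4.87), LPAR3 (6.81) and LPAR2 (7.23). S1PR2 and ADORA2A were listed at 0 in every library.

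**Figure D3:**
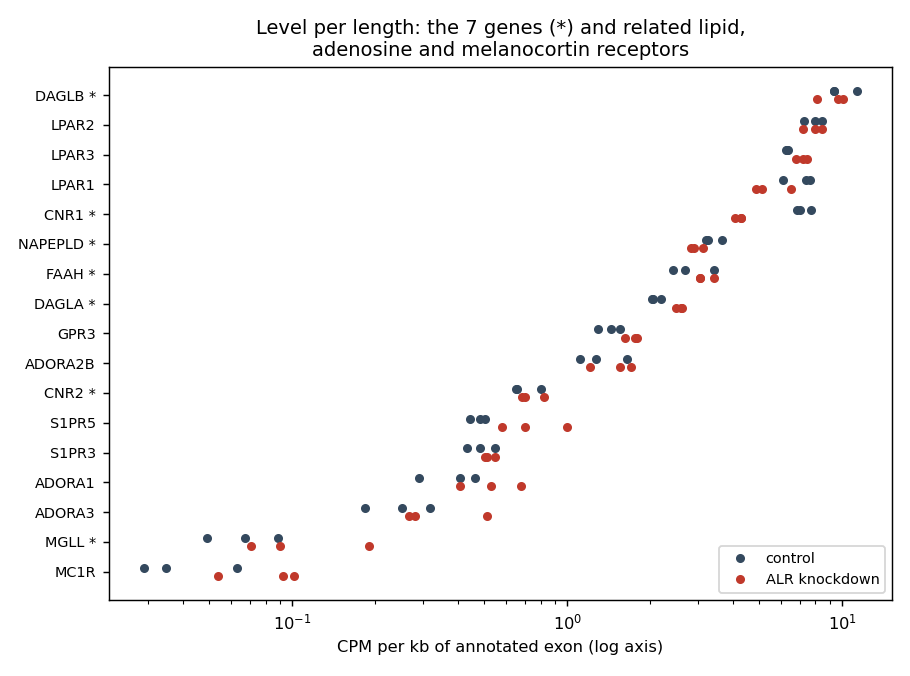
CPM per kb of annotated exon (log axis) in each of the 3 control and 3 knockdown libraries for the 7 genes (starred) and the 10 tested genes of related receptors, ordered by the mean over the 6 libraries. In this order CNR1 sits below LPAR1, LPAR3 and LPAR2, with its control points among theirs and its knockdown points under theirs. MGLL lies near the lower end, above MC1R alone, and CNR2 lies between S1PR5 and ADORA2B.

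The rest of the endocannabinoid pathway was read from 4 lists of 36 genes, of which 27 could be tested. In edgeR's test 0 of the 27 passed the adjusted threshold in either direction (background 0.786%). An unadjusted p under 0.05 was reached by 7 of the 27 (background 14.3%). Log2 fold changes were above 0 in 16 and below 0 in 11 genes, with a median of 0.04 against 0.02 over all genes. Under the alternatives, 10 of 14 again gave 0 genes. PLCB1 (-0.41 ± 0.10; edgeR adjusted p = 0.0797) passed in the other 4 and HRASLS5 (-0.28 ± 0.06; edgeR adjusted p = 0.0753), an acyltransferase for anandamide precursors, in 3 of these, and both were named after their values were seen. PLCB4 and FAAH2 passed in 2, with no low-count filter and without knockdown library c. The 4 alternatives with a pass also called more of all genes than the 155 of 19721 as reported. They called 1064 of 32300 with no low-count filter and 1309 of 20456 without knockdown library c. DESeq2's test called 530 of 19721 and the replicate block 393 of 19721.

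Of 8 genes for receptors of endocannabinoids other than CB1 and CB2, 3 had enough counts to be tested. GPR18, TRPV1 and TRPA1 were listed at 0 in every library, which does not show that they were unexpressed. PPARA, a nuclear receptor for fatty acid derivatives, had 12.03 ± 0.882 CPM in knockdown and 10.3 ± 0.782 CPM in control libraries (log2 fold change 0.22 ± 0.11, SE; edgeR adjusted p = 0.375). PPARG had 3.13 ± 1.035 and 2.52 ± 0.216 CPM (edgeR adjusted p = 0.590). The ion channel gene TRPV2 had 2.32 ± 0.115 and 1.45 ± 0.230 CPM (log2 fold change 0.68 ± 0.23, SE; edgeR adjusted p = 0.222).

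Among 16 further genes of synthesis, 14 could be tested, 5 above 0 and 9 below, with a median of -0.12. The most abundant per length were PLA2G16, an acyltransferase of the family that makes anandamide precursors, and PLCB4 and PLCB3, phospholipases that release the diacylglycerol used by DAGLA and DAGLB. PLA2G16 had 74.5 ± 4.36 CPM in knockdown and 83.7 ± 1.99 CPM in control libraries (log2 fold change -0.17 ± 0.07, SE; edgeR adjusted p = 0.279). PLCB4 had 152 ± 23.8 and 184 ± 11.3 CPM (-0.27 ± 0.10, SE; edgeR adjusted p = 0.238), and PLCB3 had 95.4 ± 7.81 and 85.2 ± 7.27 CPM (0.16 ± 0.08, SE; edgeR adjusted p = 0.381). The members of the phospholipase C beta family therefore lay on both sides of 0.

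Of 8 further genes of breakdown 6 could be tested, with a median of 0.06. FAAH2, the second fatty acid amide hydrolase, was the most abundant per length, at 35.2 CPM per kb over the 6 libraries, whereas FAAH had 2.42 to 3.42 in single libraries. FAAH2 had 64.4 ± 8.08 CPM in knockdown and 77.6 ± 0.769 CPM in control libraries (log2 fold change -0.27 ± 0.08, SE; edgeR adjusted p = 0.173), and the groups did not overlap. ABHD12 and ABHD6, which hydrolyse the part of 2-arachidonoylglycerol that MGLL does not, had log2 fold changes of 0.03 ± 0.07 and 0.09 ± 0.17 (SE; edgeR adjusted p = 0.893 and 0.849). Per length, ABHD12 (19.3 CPM per kb) and ABHD6 (1.63) were both above MGLL (0.0928). The 4 carrier genes all had log2 fold changes above 0, with a median of 0.13 and none past the threshold. FABP5, a fatty acid-binding protein that carries anandamide, had 88.8 ± 11.05 and 82.8 ± 2.15 CPM, FABP3 had 15.6 ± 0.929 and 13.97 ± 1.085 CPM, and SCP2 had 30.3 ± 1.91 and 29.5 ± 2.31 CPM in knockdown and control libraries.

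**Figure D4:**
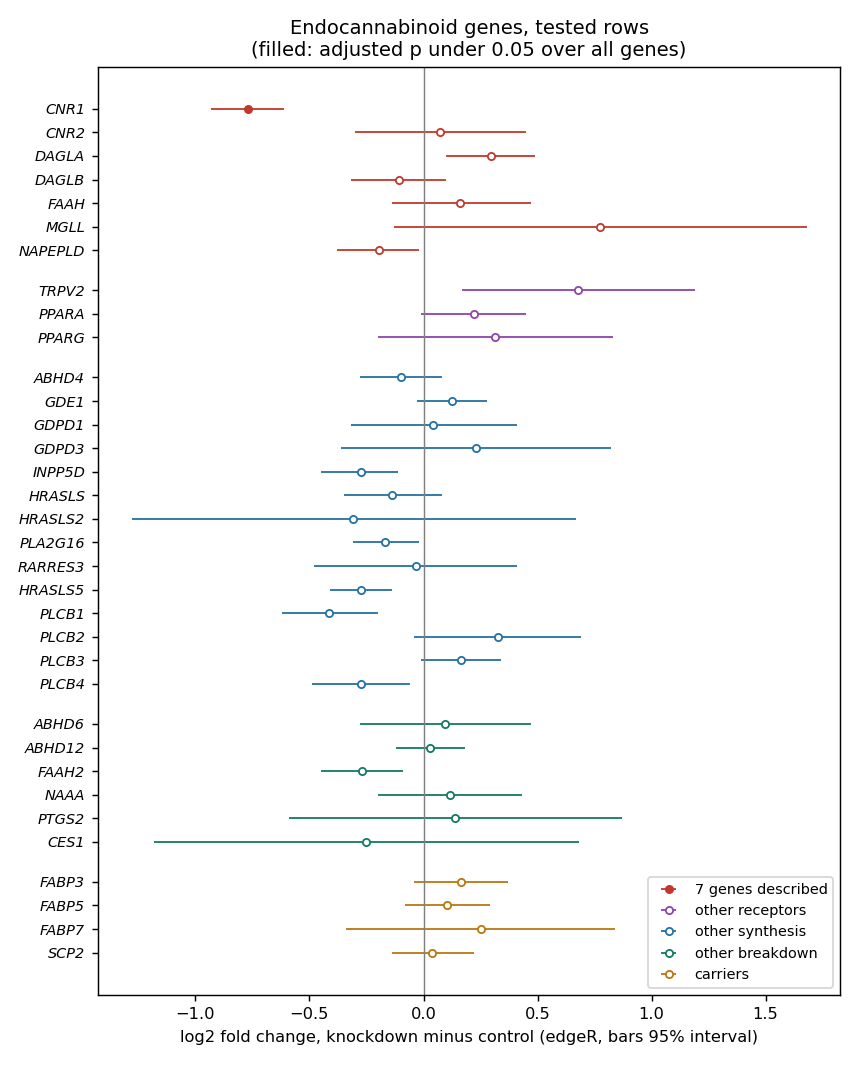
Log2 fold change (knockdown minus control; edgeR, bars show the 95% interval) of the 7 genes and of the 27 other endocannabinoid genes that could be tested, by role. CNR1 at -0.77 is the only filled point (adjusted p under 0.05 over all genes), and 16 of the 27 other genes lie above 0.

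Downstream of the receptor, 24 genes of Gi/o proteins, adenylyl cyclases, channels, RGS proteins and phosphodiesterases were listed, and 21 could be tested. The adjusted threshold was passed by 0 in edgeR's test, an unadjusted p under 0.05 was reached by 8, and the median log2 fold change was 0.02. The shares over all genes were 0.786% and 14.3%, with a median of 0.02. GNAI2, an inhibitory G protein subunit, had 151 ± 7.58 CPM in knockdown and 132 ± 1.76 CPM in control libraries (0.20 ± 0.06, SE; edgeR adjusted p = 0.191). ADCY2, an adenylyl cyclase, had 273 ± 52.3 and 374 ± 34.0 CPM (-0.45 ± 0.12, SE; edgeR adjusted p = 0.103), and it passed in 4 of the 14 alternatives, DESeq2's test among them. ADCY6, a cyclase named after its values were seen, lay on the other side of 0 (0.45 ± 0.10, SE; edgeR adjusted p = 0.0797) and passed in 2, DESeq2's test among them. GNAI1 (-0.25 ± 0.08, SE; edgeR adjusted p = 0.157) also passed in 2 and CACNA1B (-0.22 ± 0.08, SE; edgeR adjusted p = 0.238) in 1. All these passes fell in 4 alternatives that called 393 to 1309 of all genes, against 155 as reported. RGS7, which speeds the switching off of Gi/o proteins, had 29.3 ± 5.26 and 33.2 ± 1.91 CPM (-0.18 ± 0.11, SE; not past the threshold). Genes of this list lay on both sides of 0, 12 above and 9 below, and GNAZ was listed at 0 in every library.

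Of 11 genes for partners of CB1 10 could be tested, and 0 passed in edgeR's test, with 0 at an unadjusted p under 0.05 and 0 by DESeq2's test. The median log2 fold change was 0.05. Over all genes tested the shares were 0.786% and 14.3% in edgeR's test, with 530 of 19721 past the threshold in DESeq2's test. The median over all genes was 0.02, and nothing is read from counts of 0 among 10 genes. WASF1, NCKAP1 and CYFIP1, subunits of the actin-regulating WAVE complex, were the most abundant per length, with log2 fold changes of 0.06 ± 0.07, 0.02 ± 0.06 and 0.04 ± 0.07 (SE; edgeR adjusted p = 0.749, 0.935 and 0.830).

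The genes around CNR1 on chromosome 6 were read to see whether its neighbours moved with it. Of the 3 nearest protein-coding genes on each side, 5 could be tested, and 0 passed the threshold in edgeR's test, with 1 (RNGTT) at an unadjusted p under 0.05. Over all genes tested these shares were 0.786% and 14.3%, so nothing is read from the counts among 5 genes. The nearest, SPACA1, a sperm acrosome gene 73.0 kb away, had too few counts to be tested. The log2 fold changes were -0.07 ± 0.06 for AKIRIN2 and -0.03 ± 0.07 for ORC3 on the side of lower coordinates (SE; edgeR adjusted p = 0.618 and 0.871). On the other side they were -0.24 ± 0.10 for RNGTT, -0.06 ± 0.07 for PNRC1 and 0.07 ± 0.09 for SRSF12 (SE; edgeR adjusted p = 0.291, 0.752 and 0.778). The 5 tested genes lie 438 to 930 kb from CNR1. None of the 5 had a fall as large as that of CNR1, but CNR1 was chosen on this contrast, so nothing is read from this.

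The genes whose log2 CPM followed CNR1 most closely over the 6 libraries were MDM2 (Pearson r = 0.996), PROSER1 (0.994), SLC4A8 (0.994), RPS6KA3 (0.992) and TMEM64 (0.991), out of 15117 genes compared. These correlations are a description: the 6 points share their libraries and depths, they fall into the 2 groups, and any gene with a clear difference between the groups scores high. All 5 were lower in knockdown libraries and past the threshold, with log2 fold changes of -0.47, -0.81, -0.35, -0.91 and -0.37. With the group means removed, the closest genes were TMEM183A (r = 0.999), CDK18 (0.996), PRKRA (0.993), NXF1 (0.992) and FAF2 (0.991), none of which was past the threshold, and none of the first 5 was among them. These r are a description too. They are the highest of 15117 genes over only 6 libraries, where a search alone finds high values, so no shared regulation is read from them.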

How the data were processed

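RNA-seq of 6 libraries was used. The authors deposited raw read counts per gene symbol; the submitters' processing notes name Trimmomatic 0.39, STAR 2.7.8a, featureCounts, Subread 2.14.2 and hg38. The annotation, strand setting and treatment of reads in overlapping genes are not given in the sources used here. From these counts, edgeR 4.0.16 (R 4.3.3) was run on all genes with filterByExpr, TMM scaling and the quasi-likelihood test, and a model of group alone. Two-sided p-values were adjusted by Benjamini and Hochberg's method at a threshold of 0.05. The common biological coefficient of variation was 0.103. The procedure was tested on simulated data. Alternatives were other scalings, filters, DESeq2 1.42.0, limma-voom (limma 3.58.1), a replicate block and leaving out each library. Exon lengths, positions and overlaps came from GENCODE release 29 (GRCh38), by symbol, and start sites from RefSeq (GRCh38.p14).

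The genes and lists were chosen with earlier results of these data known. Named from each list were genes past the threshold and the 3 most abundant per length; for likeness to CNR1, the 5 highest Pearson r of log2 CPM (prior count 2) among genes with a mean count of at least 50. Errors are SD over n = 3 unless SE is given.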

Additional observations from a re-analysis of the deposited data

How the results depend on the processing

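CNR1 was past the threshold in all 14 alternatives, with log2 fold changes from -0.80 to -0.72 and adjusted p from 5.55e-15 to 0.0138 (edgeR, DESeq2 or limma-voom), which is no independent support since it was chosen on this contrast. The other 6 genes passed in none of those that gave them an adjusted p. MGLL had no fit at a mean count of at least 50 and no adjusted p in DESeq2's test. The signs of the 6 held except for CNR2 without knockdown library b (-0.025), with 0.18 as its highest value, without control library c. The count of genes past the threshold was 155; it was 1064 with no low-count filter, 530 with DESeq2's Wald test and 393 with the replicate block, and, with a library left out, 26 (control a), 42 (control b), 42 (control c), 102 (knockdown a), 61 (knockdown b) and 1309 (knockdown c). Same-letter deviations from the group means correlated at 1.23e-05 (a), 0.116 (b) and -0.0251 (c), while the replicate block raised the count from 155 to 393. Whether the letters mark pairs cannot be told from these values. With the replicate block CNR1 had -0.77. List counts were recomputed under each alternative after the data had been seen: the highest counts were 4 of the endocannabinoid genes outside the 7, 3 of the Gi/o genes, 1 of the related receptors (LPAR1) and 0 of the CB1 partners. The counts of 4, 3 and 1 came with no low-count filter and without knockdown library c, where the most genes passed overall (1064 and 1309). At 18 to 64 counts per library, the change of MGLL is poorly determined.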
